A study of Mus musculus with 2 samples.

Results

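Genes of the Bcl2 family that hold back or bring about mitochondrial cell death were compared between mouse livers with and without hepatocyte targeting of Akt1. The 10 genes were taken by symbol from the authors' table of 23283 gene rows. They comprised 3 pro-survival genes (Mcl1, Bcl2l1 and Bcl2), 2 effectors (Bax and Bak1) and 5 genes of the BH3-only class (Bcl2l11, Bid, Bad, Bbc3 and Pmaip1). All 10 had a row of status OK, so none was set aside for its status.

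Livers came from perfused, 6-month-old male C57Bl/6 mice. One group carried the genotype Akt1F/F;Akt2-/-;Alb-Cre and the other Akt1F/F:Akt2-/-, so mice of both groups were labelled as Akt2-null with floxed Akt1. Alb-Cre is a Cre recombinase under the albumin promoter, which is active in hepatocytes, so other liver cells are not its target. RNA of 4 livers was pooled for each genotype into 1 library, named below the Alb-Cre library and the control library. With 1 library each, no value carries an error, no p-value could be computed, and every difference lacks a replicate check. The spread between mice is hidden by the pooling.

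The Bcl2 family governs whether the outer membrane of the mitochondrion stays intact. Bax and Bak1 encode the effectors that, once activated, form pores through which cytochrome c leaves to set off caspases. Pro-survival members bind and restrain them, and BH3-only members, named for the short helix they carry, either activate the effectors or occupy the pro-survival members. Hepatocytes are known to depend on Mcl1 and Bcl2l1, and Akt is known to act on the family by phosphorylating Bad and by keeping FoxO factors, which can induce Bcl2l11 and Bbc3, out of the nucleus.

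Values are FPKM as deposited by the authors, which corrects fragments for transcript length and library, so levels can be set beside each other between genes. A log2 ratio below is log2 of Alb-Cre FPKM plus 1 over control FPKM plus 1, which understates the change of weakly expressed genes. Genes of status OK that reached 1 FPKM in at least 1 library, 11406 in number, are called measured. The steps between the lowest values put 1 FPKM in a transcript of 1 kb at about 133 reads in the Alb-Cre library and 118 in the control library. Akt1 had 17.1 FPKM in the Alb-Cre library and 23.7 in the control library, and Akt2 had 33.5 FPKM in the Alb-Cre library and 37.5 in the control library. These whole-gene values are a weak check of the labels, since no source used here says which exons the alleles lack. Hepatocyte genes were abundant in both libraries, with Cps1, a urea cycle enzyme, at 1022 FPKM in the Alb-Cre library and 1048 in the control library. Cps1 differed least of the 8 hepatocyte markers of usable status and does not stand for the others. Their log2 ratios ran from -1.02 to 1.11, with 2 above 0, so hepatocyte expression was not equal in the libraries.

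Of the 10 genes, 8 were measured, and Bcl2l11 alone passed a 2-fold limit. It was higher in the Alb-Cre library, and 0 members were lower by that limit. The background shares past that limit, over all measured genes, were 3.75% for genes higher in Alb-Cre and 1.83% for genes lower. A count of 1 in 8 rests on a single gene and says nothing about the family as a group. The median log2 ratio was -0.03 over the 8 measured members and -0.06 over all measured genes, of which the middle 90% lay between -0.62 and 0.86. Centring the ratios on the 4964 genes that both libraries hold at 10 FPKM or above adds 0.13 to every ratio, and the share of higher genes among those past the limit is then 78.0% in place of 67.2%. Under that centring and under rescaling to the same FPKM sum, the small negative ratios of Bcl2l1, Bak1 and Bad turn positive, so no direction is given for these 3 genes.

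**Figure D1:**
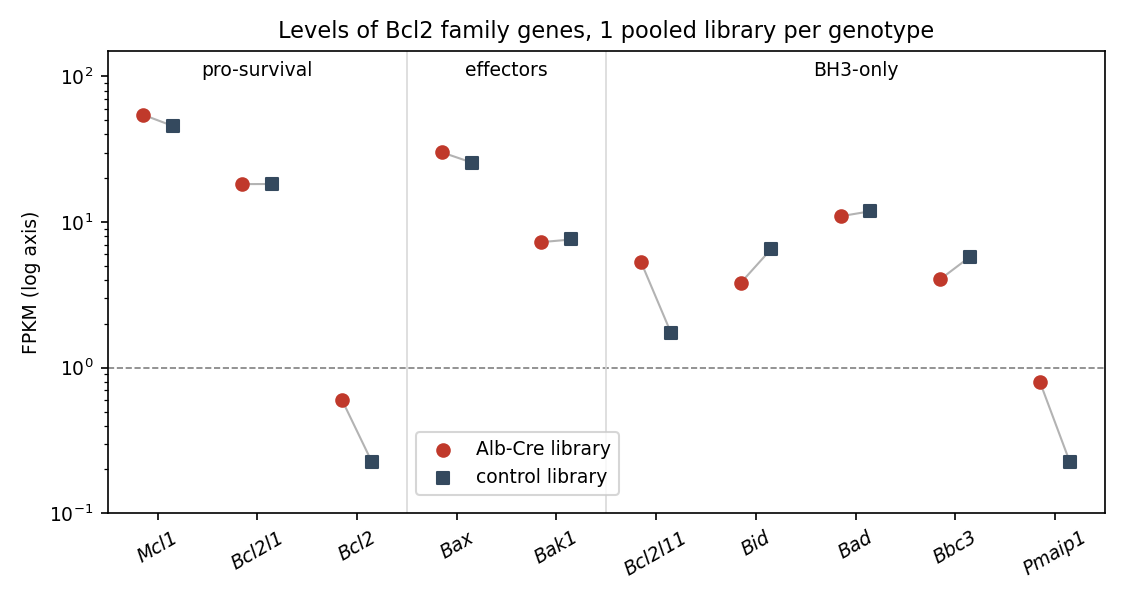
FPKM (log axis) of each of the 10 genes in the Alb-Cre library (red circles) and the control library (dark squares), 1 pooled library per genotype, so no error bars. Mcl1 is highest in both libraries, Bcl2 and Pmaip1 lie under 1 FPKM in both, and the dashed line marks 1 FPKM.

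Pro-survival transcripts were dominated by Mcl1 in both libraries. Mcl1 (mm10 chromosome 3, 95658788 to 95663176, plus strand), a short-lived protein that restrains Bak1 and Bax, had 54.6 FPKM in the Alb-Cre library and 45.7 in the control library, a log2 ratio of 0.25. Of all measured genes 19.8% had a ratio at least that high, so Mcl1 lay inside the bulk of genes. Bcl2l1 (chromosome 2, 152780668 to 152831728, minus strand), which encodes Bcl-xL, had 18.2 FPKM in each library. Mcl1 therefore stood at 3.0 times Bcl2l1 in the Alb-Cre library and 2.51 times in the control library. Bcl2 (chromosome 1, 106538178 to 106714274, minus strand), the founding member, was the lowest of the 10, with 0.598 FPKM in the Alb-Cre library and 0.225 in the control library, where Pmaip1 was level with it. Its ratio of FPKM was 2.66-fold, but it lay under the 1 FPKM minimum in both libraries and was not counted. By the read steps, these levels stand for about 79.8 and 26.4 reads per kb of transcript in the Alb-Cre and control libraries. Summed, the 3 genes came to 73.5 FPKM in the Alb-Cre library and 64.2 in the control library.

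Both effectors lay within the 2-fold limit. Bax (chromosome 7, 45461697 to 45466898, minus strand), which moves from the cytosol to the mitochondrion when activated, had 30.1 FPKM in the Alb-Cre library and 25.6 in the control library, a log2 ratio of 0.23. Bak1 (chromosome 17, 27019810 to 27029009, minus strand), which resides in the outer membrane, had 7.28 FPKM in the Alb-Cre library and 7.59 in the control library, a log2 ratio of -0.05. Bax was the more abundant effector transcript, at 4.14 times Bak1 in the Alb-Cre library and 3.38 times in the control library. In GENCODE, 25.5% of the exon bases of Bak1 also belong to Ggnbp1 on the other strand, which had 7.82 FPKM in the Alb-Cre library and 7.32 in the control library. The sources used here do not say whether reads were assigned by strand, and without that, reads of the overlapping stretches cannot be told apart. Of the exon bases of Bax, 12.2% are shared with the overlapping model Gm45808 on the same strand.

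The BH3-only genes diverged, with Bcl2l11 higher and Bid and Bbc3 lower in the Alb-Cre library. Bcl2l11 (mm10 chromosome 2, 128126038 to 128162547, plus strand) encodes Bim, which binds every pro-survival member and activates Bax and Bak1 directly. It had 5.28 FPKM in the Alb-Cre library and 1.73 in the control library, a 3.06-fold ratio of FPKM and a log2 ratio of 1.20. Only 308 of 11406 measured genes (2.70%) had a ratio at least as high. Among the 10 genes Bcl2l11 ranked 6 by level in the Alb-Cre library and 8 in the control library. With a pseudocount of 5 FPKM its log2 ratio was 0.61 and it no longer passed the limit.

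Bid and Bbc3 lay on the other side of 0 but within the 2-fold limit. Bid (chromosome 6, 120891930 to 120916853, minus strand), which caspase-8 cleaves to link death receptors to mitochondria, had 3.83 FPKM in the Alb-Cre library and 6.48 in the control library, a log2 ratio of -0.63. A ratio at least as low was found for 544 measured genes (4.77%). Bbc3, which encodes Puma and is induced by p53, had 4.05 FPKM in the Alb-Cre library and 5.79 in the control library, a log2 ratio of -0.43. A ratio at least as low was found for 10.5% of measured genes. The 3 transcripts Bcl2l11, Bid and Bbc3, whose products are held to activate the effectors directly, summed to 13.16 FPKM in the Alb-Cre library and 13.996 in the control library. Bcl2l11 made up 40.1% of that sum in the Alb-Cre library and 12.4% in the control library, Bid 29.1% and 46.3%, and Bbc3 30.8% and 41.3%. Bcl2l11 was thus the most abundant of the 3 in the Alb-Cre library and the least abundant in the control library. Of the exon bases of Bid, 17.7% are shared with the end of Bcl2l13 on the other strand, which had 8.78 FPKM in the Alb-Cre library and 10.2 in the control library.

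The remaining BH3-only genes are Bad and Pmaip1, whose products mainly occupy pro-survival members. Bad (chromosome 19, 6941861 to 6951899, plus strand), whose protein is held by 14-3-3 proteins when Akt phosphorylates it, had 10.96 FPKM in the Alb-Cre library and 11.9 in the control library, a log2 ratio of -0.10. It was the most abundant BH3-only transcript in both, and 20.5% of its exon bases are shared with Gpr137 on the other strand. Pmaip1, which encodes Noxa, a partner of Mcl1, had 0.797 FPKM in the Alb-Cre library and 0.225 in the control library. This is 3.54-fold in FPKM at about 106 and 26.5 reads per kb of transcript in the Alb-Cre and control libraries, and it stayed under the minimum.

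**Figure D2:**
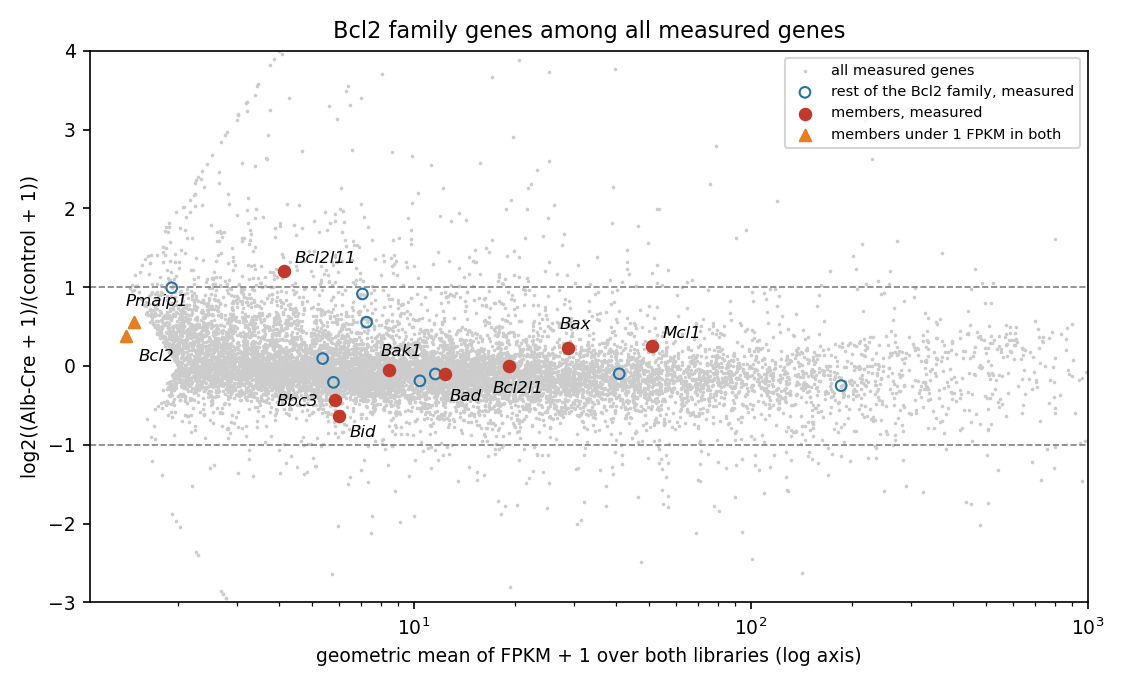
Log2 ratio of Alb-Cre over control (pseudocount 1 FPKM) against the geometric mean level (log axis) for 11261 of the measured genes (grey; 145 lie beyond the axes), the members and the rest of the family, with dashed lines at 2-fold. Bcl2l11 is the member above the upper line, and Bid, at -0.63, is the lowest member.

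Bcl2l11 and Bbc3 are described as FoxO targets, and both carry a FoxO core motif in a RefSeq promoter window. The windows span 250 bases before to 50 bases after each gene start on GRCm38, the assembly behind mm10, and 9 of the 10 genes had 15 windows between them; Pmaip1 had none. GTAAACA was searched on both strands and was found in 3.65% of all 32851 windows and in 2 of the 15. The insulin response core CAAAACA, searched the same way, was in 6.28% of all windows and in 0 of the 15. The stretches before the start are shown because these genes share the motif and lie on opposite sides of 0. Capitals mark the match, which in Bbc3 is on the minus strand and reads as the reverse complement.
Bcl2l11, chr2:128125788-128126037, plus strand: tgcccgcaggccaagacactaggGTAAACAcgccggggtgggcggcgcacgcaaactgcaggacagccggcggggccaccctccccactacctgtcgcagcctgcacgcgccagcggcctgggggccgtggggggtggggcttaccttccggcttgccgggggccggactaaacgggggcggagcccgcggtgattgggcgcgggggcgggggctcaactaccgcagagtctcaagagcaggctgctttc
Bbc3, chr7:16310011-16310260, plus strand: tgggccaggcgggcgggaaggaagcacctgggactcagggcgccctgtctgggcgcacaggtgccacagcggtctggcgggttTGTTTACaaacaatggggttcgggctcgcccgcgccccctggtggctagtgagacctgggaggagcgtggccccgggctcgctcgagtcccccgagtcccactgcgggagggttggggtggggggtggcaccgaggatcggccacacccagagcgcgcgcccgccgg
The match in Bcl2l11 begins 227 bases before the start and lies upstream of the gene. In Bbc3 it begins 167 bases before one of several starts and lies within the gene as GENCODE annotates it (chromosome 7, 16308393 to 16318205), outside any annotated exon. Across the table, 262 measured genes had such a window, and 2.67% of them passed the 2-fold limit upward in the Alb-Cre library, against 3.16% of the 8113 measured genes with any window. Downward the shares were 2.29% of the genes with the motif, against 1.38% of those with any window. A match of letters is a description and does not show that a factor binds there.

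Set against each other, pro-survival and pro-death transcripts of the 10 genes stood in a ratio that differed 1.09-fold between libraries. The 7 pro-death genes summed to 62.3 FPKM in the Alb-Cre library and 59.3 in the control library. The ratio of pro-survival to pro-death sums was 1.18 in the Alb-Cre library and 1.08 in the control library, and such a ratio within a library does not depend on how libraries are scaled. Without the most abundant gene of each side, Mcl1 and Bax, it was 0.584 in the Alb-Cre library and 0.549 in the control library. Both ratios draw on the 10 genes only and leave out measured relatives such as Bcl2l2, Bik, Bok and Bmf. A ratio with those relatives was not computed, so no direction is given for the whole family. The median log2 ratio was 0.13 over the 2 measured pro-survival genes and -0.08 over the 6 measured pro-death genes. The pro-death median turned positive, 0.0298 with rescaled libraries and 0.0559 with centred ratios, where the pro-survival median was 0.24 and 0.26, so the signs do not set the sides apart. Bcl2l11 amounted to 7.19% of the pro-survival sum in the Alb-Cre library and 2.69% in the control library. Bid amounted to 5.21% of it in the Alb-Cre library and 10.1% in the control library. These are sums of transcripts, and protein levels or phosphorylation were not measured.

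**Figure D3:**
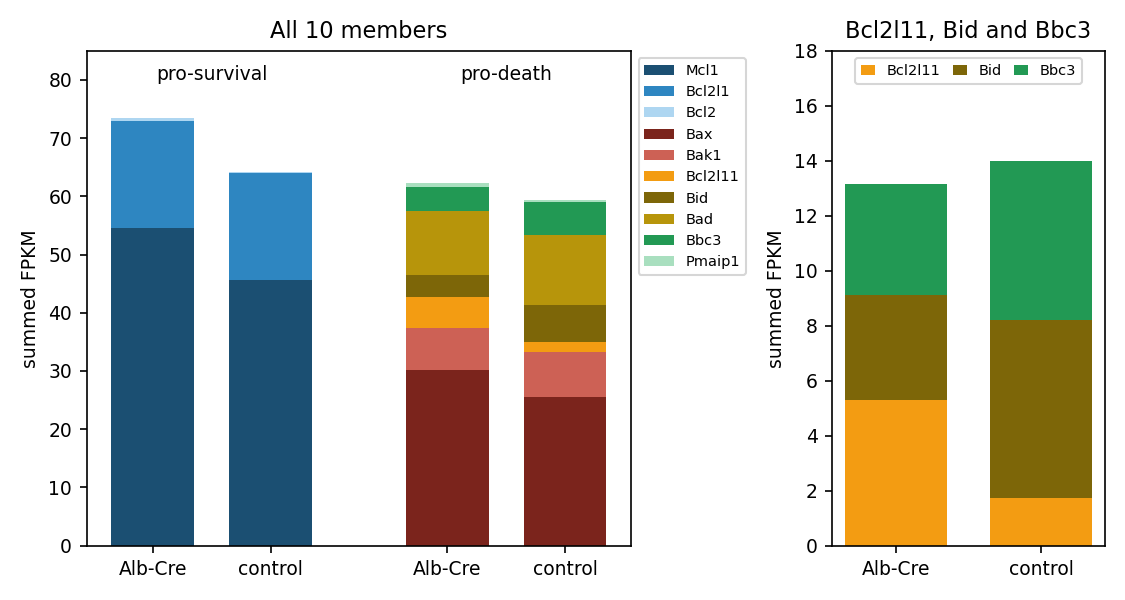
Stacked FPKM, in each pair with the Alb-Cre library left of the control library, 1 pooled library per bar. The left panel stacks pro-survival and pro-death genes, and the right panel stacks Bcl2l11, Bid and Bbc3, where similar totals (13.16 and 13.996 FPKM) hold different shares of Bcl2l11.

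In the authors' deposited table, 0 of the 10 genes were called different among 100 genes called in all. Bcl2l11 had the lowest p-value of the 10 in the authors' deposited table, 0.00775, with a q-value of 0.38. A p-value at least as low was listed for 303 of the 14868 genes of status OK in the authors' deposited table. The other 9 members had p-values from 0.0764 for Pmaip1 to 0.996 for Bcl2l1 and a q-value of 0.999 in the authors' deposited table. Such p-values set 1 pool against another, and variation from mouse to mouse had no part in them.

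The rest of the Bcl2 family held a few genes near the limit but 0 past it among 9 measured of 16 listed, with a median log2 ratio of -0.10. That count of 0 holds for uncentred ratios with the pseudocount of 1 FPKM. Bcl2a1b, a pro-survival gene of blood cells, came closest, with 1.70 FPKM in the Alb-Cre library and 0.359 in the control library (log2 ratio 0.99). It has near-identical copies, so its value and those of Bcl2a1a (0.345 and 0.0462 FPKM in the Alb-Cre and control libraries) and Bcl2a1d (0.202 and 0.0471 FPKM in the same order) are uncertain. Bik, a BH3-only gene, had 8.68 FPKM in the Alb-Cre library and 4.14 in the control library (0.91). Bok, related to Bax and Bak1, had 7.80 FPKM in the Alb-Cre library and 4.98 in the control library (0.56). Bmf, a BH3-only gene, had 4.55 FPKM in the Alb-Cre library and 4.20 in the control library (0.09). Bcl2l2, which encodes the pro-survival protein Bcl-w, had 10.2 FPKM in the Alb-Cre library and 11.0 in the control library (-0.10). Bnip3, a mitophagy receptor, was the most abundant of the wider family, with 169 FPKM in the Alb-Cre library and 201 in the control library (-0.25). The other measured genes, Bnip3l, Bcl2l13 and Bcl2l12, had log2 ratios between -0.21 and -0.10.

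Genes of the apoptosome, caspases, inhibitors of apoptosis and membrane partners lay within the 2-fold limit. Of 13 measured apoptosome and caspase genes, 0 were past it in either direction and the median log2 ratio was -0.15. The executioner caspase gene Casp6 had 35.2 FPKM in the Alb-Cre library and 22.8 in the control library (0.61). Of 6 measured inhibitors of apoptosis, 0 were past the limit, and Xiap, which blocks caspases, had 18.3 FPKM in the Alb-Cre library and 25.3 in the control library (-0.45). The giant inhibitor gene Birc6 had 6.01 FPKM in the Alb-Cre library and 8.07 in the control library (-0.37). Of 6 measured genes listed as membrane partners of the family, 0 were past the limit, led by Tmbim6 (-0.37) and Bcap31 (-0.33).

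Death receptor genes upstream of Bid also lay within the limit. Of 9 measured genes 0 were past it, with a median log2 ratio of -0.13. Cflar, which encodes the caspase-8 inhibitor c-FLIP, had 19.9 FPKM in the Alb-Cre library and 26.2 in the control library (-0.38). The receptor gene Fas had 9.84 FPKM in the Alb-Cre library and 11.5 in the control library (-0.20).

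The p53 list, which holds targets of p53 beside p53 itself, had members past the limit. Of its 13 measured genes, 2 passed it upward in the Alb-Cre library and 0 downward, and their median log2 ratio was 0.05. For this list and the ATF4 list below, the shares over all measured genes were 3.75% upward and 1.83% downward. The cell cycle inhibitor gene Cdkn1a had 5.49 FPKM in the Alb-Cre library and 0.761 in the control library (1.88), and the sestrin gene Sesn2 had 9.64 FPKM in the Alb-Cre library and 2.72 in the control library (1.52). Log2 ratios of the 13 genes ran from -0.93 to 1.88, with 8 above 0. A part of p53 in the values of the 10 genes was not tested. In the ATF4 list 1 of 6 measured genes was past the limit, the pseudokinase gene Trib3, with 13.2 FPKM in the Alb-Cre library and 4.36 in the control library (1.40). Chac1, a glutathione-degrading enzyme induced by ATF4, had 1.83 FPKM in the Alb-Cre library and 3.19 in the control library (-0.57).

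Transcripts of the factors and kinases that act on Bcl2l11 or Bad were within the limit for all 12 measured genes. Their median log2 ratio was -0.15, and the largest in size were those of the kinase genes Pim1 (7.65 FPKM in the Alb-Cre library and 14.4 in the control library, -0.84) and Akt1 (-0.45). Foxo1 had 11.4 FPKM in each library, and Foxo3 had 8.51 FPKM in the Alb-Cre library and 9.50 in the control library. Of 6 measured 14-3-3 genes, 0 were past the limit, led by Ywhah (0.25) and Ywhag (-0.24). Of 4 measured genes of Mcl1 turnover, 0 were past the limit, led by the deubiquitinase gene Usp9x (-0.36) and the ubiquitin ligase gene Huwe1 (-0.21).

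**Figure D4:**
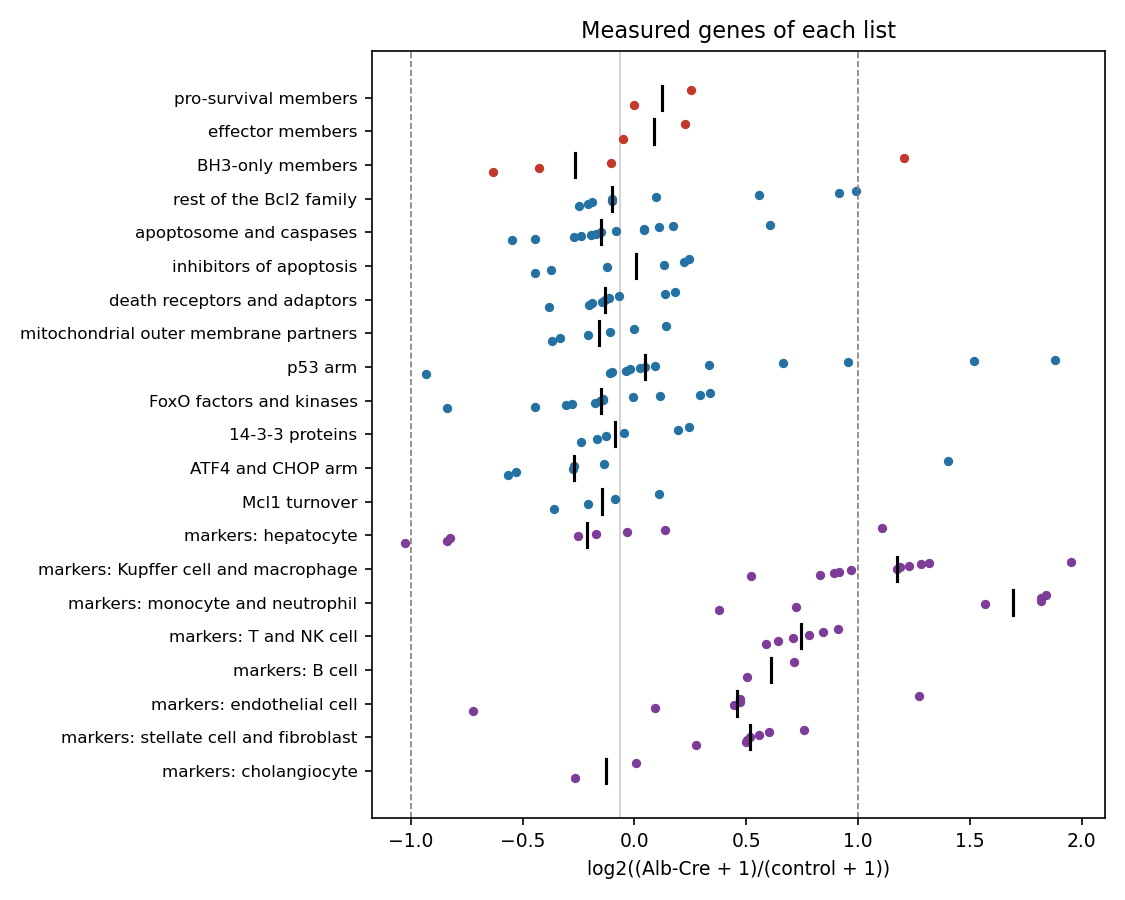
Log2 ratio of Alb-Cre over control (pseudocount 1 FPKM) for every measured gene of each list, with black bars at list medians, dashed lines at 2-fold and a grey line at the median of all measured genes. Lists of the members are red, other pathway lists, with the rest of the Bcl2 family, are blue, and cell type markers are purple. The macrophage and monocyte lists lie to the right, with medians of 1.17 and 1.69.

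Summed markers of immune cells were above control in the Alb-Cre library. Kupffer cell and macrophage markers summed to 405 FPKM in the Alb-Cre library and 175 in the control library, with 11 of 11 higher and 6 past the 2-fold limit. Over all measured genes, 3.75% were past that limit upward. Monocyte and neutrophil markers summed to 116 FPKM in the Alb-Cre library and 35.9 in the control library, with 9 of 9 higher, and 4 of 6 measured past the limit. Most of that sum was Lyz2, with 84.4 FPKM in the Alb-Cre library and 27.8 in the control library. T and NK cell markers summed to 11.0 FPKM in the Alb-Cre library and 3.99 in the control library, with 10 of 11 higher, and 0 of 6 measured past the limit. B cell markers summed to 4.89 FPKM in the Alb-Cre library and 2.25 in the control library, with 6 of 6 higher, and 0 of 2 measured past the limit. Usable markers that were not measured lay under 1 FPKM in both libraries. No usable marker of these lists was at 0 in both libraries. The sums stood at 2.31, 3.22, 2.76 and 2.17 times control in the order given, beside 3.06 for Bcl2l11, 3.54 for Pmaip1, 2.66 for Bcl2 and 4.75 for Bcl2a1b.

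The part of such cells in the values of these 4 genes was not tested. In whole liver, fewer cells of a type and less RNA per cell cannot be told apart. Usable hepatocyte markers summed to 12690 FPKM in the Alb-Cre library and 15744 in the control library, with 2 of 8 higher. Stellate cell and fibroblast markers summed to 181 FPKM in the Alb-Cre library and 108 in the control library, with 8 of 8 higher. Most of that sum was Dcn, with 155 FPKM in the Alb-Cre library and 91.5 in the control library. Endothelial markers summed to 93.1 FPKM in the Alb-Cre library and 67.9 in the control library, with 5 of 6 higher. Cholangiocyte markers summed to 34.3 FPKM in the Alb-Cre library and 34.1 in the control library, with 4 of 6 higher. Most of that sum was Spp1, with 30.5 FPKM in the Alb-Cre library and 30.3 in the control library.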

How the data were processed

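The authors deposited 1 table in the Cuffdiff layout with an FPKM value per gene and library and their own p-value and q-value, per the file headers. The submitters' processing notes name FastQC, TopHat2 2.0.8, Cuffdiff 2.1.1 and mm10, with no role or order. Settings, annotation, strand handling and sequencing totals are not given in the sources used here. Rows of status HIDATA (17) or FAIL (1) were set aside, and none was a member.

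From these values log2 ratios with a pseudocount of 1 FPKM were computed, with a minimum of 1 FPKM in at least 1 library and a 2-fold limit. The call rule was tested on simulated data. That test planted larger changes in more abundant genes than Bcl2l11, so it does not cover a gene at the level of Bcl2l11. Reads per FPKM came from the commonest product of FPKM and length among genes with 1 GENCODE transcript over 600 bases. Such figures cover counting error only. Positions and exons are from GENCODE vM21 and promoters from RefSeq (GRCm38.p6). Pidd1 and Adgre1 were matched by older symbols, and Trac was not matched.

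The members, lists, motifs and rules were chosen with earlier results of these data known. Named are all members, the measured rest of the family, and the 2 largest ratios of each other pathway list. The FoxO genes, Cps1 and the marker genes Lyz2, Dcn and Spp1 were added. A gene that this rule names is not reported here. Alternatives were other pseudocounts, minima, scalings, statuses and limits. Python 3.11.15, pandas 2.3.3, numpy 2.4.6 and matplotlib 3.10.9 were used.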

Additional observations from a re-analysis of the deposited data

How the results depend on the processing

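No paired analysis was possible because each genotype had 1 library, and for the same reason no replicate could be left out. The count of 1 member at least 2-fold higher was the same under 7 of the 9 alternatives listed for it and without a pseudocount, an alternative chosen after seeing the data. Allowing other statuses or no minimum could not change it, since all members had status OK and genes under 1 FPKM cannot reach 2-fold with that pseudocount. A lower pseudocount or the 1.5-fold limit could add members but not drop Bcl2l11. The 7 are therefore not 7 separate checks of the count. The count was 0 with a pseudocount of 5 FPKM and 0 at a 4-fold limit. The count of lower members was 0 except at a 1.5-fold limit, where it was 1, Bid. The pro-survival median log2 ratio was 0.12 with a pseudocount of 5 FPKM, 0.25 with no minimum, 0.24 after rescaling to equal FPKM sums and 0.26 after centring. The pro-death median was -0.0860 and -0.0575 with pseudocounts of 0.1 and 5 FPKM, -0.0530 with no minimum, 0.0298 rescaled and 0.0559 centred. Without the most abundant gene of each side the ratio of pro-survival to pro-death sums was 0.584 in the Alb-Cre library and 0.549 in the control library. Among all measured genes, 769 and 178 were at least 2-fold higher with pseudocounts of 0.1 and 5 FPKM, and 283 with a minimum of 5 FPKM. At a 1.5-fold limit 1012 were higher and 661 lower, and at a 4-fold limit 117 were higher and 45 lower. Over all alternatives the log2 ratio of Bcl2l11 ran between 0.61 and 1.61, and that of Bid between -0.76 and -0.38. Depth limits Bcl2 and Pmaip1 most, and the unknown spread between mice limits every value.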
